A study of Mus musculus with 55 samples.

Results

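The 10 mouse genes described here belong to the Fgf pathway: the receptors Fgfr1 and Fgfr2, the feedback inhibitors Spry2, Spry4, Dusp6, Dusp9 and Il17rd, and the Ets transcription factors Etv1, Etv4 and Etv5. The genes were taken by symbol from a fixed list, which was chosen with earlier results of these data known. All 10 were present among the 15807 genes counted in epiblast stem cells (EpiSCs) and among the 14602 counted in embryonic tailbuds. The series holds 55 samples on the Cdx and T transcription factors in axial progenitors, the cells that build the trunk and tail. RNA was counted by CEL-seq, which reads the 3′ end of each transcript, in 17 of them. The EpiSC groups were Null and WT, each at 24h and at 0h, with 2 libraries per group. EpiSCs are pluripotent lines, here derived from pre-streak embryos at E6.0, first kept on embryonic fibroblasts and then on fibronectin. At 0h the medium held 12 ng/ml Fgf-basic, 20 ng/ml Activin A and 2 µM IWP2, a blocker of Wnt secretion. At 24h IWP2 had been withdrawn, and 3 µM Chiron, a GSK3 inhibitor that activates Wnt signalling, and 120 ng/ml Fgf8 had been added. No 24h culture without them was analysed here, so the 2 additions, IWP2 withdrawal and time cannot be told apart, and Fgf was present before as well. The tailbud groups were Triple, Cdx1-4 and WT, with 3 libraries each, dissected at E8.0. Which alleles the names Null, Cdx1-4 and Triple stand for is not given; the culture notes of the Null lines start from CdxKO embryos and also mention a line lacking Wnt3. Nor do the labels say whether replicates were separate cultures or animals, so p-values measure only the spread between these libraries, which may be technical.

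Fgf ligands bind receptor tyrosine kinases together with heparan sulfate proteoglycans, and the receptors signal through Ras to the kinase ERK. ERK signalling raises transcription of the Ets factors Etv1, Etv4 and Etv5 and of its own inhibitors: Sprouty proteins (Spry2, Spry4) act on the Ras branch, Dusp6 and Dusp9 are phosphatases that inactivate ERK, and Il17rd (Sef) is a membrane protein that dampens receptor signalling. For that reason these genes are widely used as readouts of the pathway. In the posterior embryo Fgf8 made by the tailbud keeps presomitic mesoderm immature, Fgfr1 is the main receptor of early mesoderm, and Fgfr2 is known for its part in epithelia and in limb and lung outgrowth.

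Promoters are shown first for 4 members with calls described below, Dusp6 and Etv1 in EpiSCs and Il17rd and Fgfr2 in tailbuds, from RefSeq on GRCm38.p6, the build named mm10 in the files. Each runs from 250 bases before to 50 bases after the transcription start, 5′ to 3′ on the gene's own strand. The Dusp6 window is chr10:99262981-99263280 (+ strand), that of Etv1 chr12:38779832-38780131 (+), that of Il17rd chr14:27038751-27039050 (+) and that of Fgfr2 chr7:130266759-130267058 (− strand). Capitals mark GGAA or its reverse complement TTCC, the core letters that Ets factors bind.
Dusp6: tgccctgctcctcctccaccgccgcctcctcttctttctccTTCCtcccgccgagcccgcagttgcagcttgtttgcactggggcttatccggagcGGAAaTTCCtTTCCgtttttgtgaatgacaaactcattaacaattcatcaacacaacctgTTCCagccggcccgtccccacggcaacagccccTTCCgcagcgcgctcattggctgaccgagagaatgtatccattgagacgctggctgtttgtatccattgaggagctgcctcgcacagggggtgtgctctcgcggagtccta
Etv1: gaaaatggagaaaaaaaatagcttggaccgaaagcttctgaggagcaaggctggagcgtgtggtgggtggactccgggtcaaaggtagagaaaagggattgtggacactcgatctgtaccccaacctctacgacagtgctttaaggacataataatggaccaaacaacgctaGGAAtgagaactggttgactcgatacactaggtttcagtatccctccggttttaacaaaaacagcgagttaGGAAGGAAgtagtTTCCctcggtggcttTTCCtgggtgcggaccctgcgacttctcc
Il17rd: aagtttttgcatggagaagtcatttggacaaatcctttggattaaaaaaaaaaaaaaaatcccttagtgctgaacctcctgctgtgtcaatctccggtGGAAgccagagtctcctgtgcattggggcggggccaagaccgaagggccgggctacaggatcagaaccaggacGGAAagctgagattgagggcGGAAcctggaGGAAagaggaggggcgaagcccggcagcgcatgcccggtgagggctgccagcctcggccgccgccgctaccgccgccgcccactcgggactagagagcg
Fgfr2: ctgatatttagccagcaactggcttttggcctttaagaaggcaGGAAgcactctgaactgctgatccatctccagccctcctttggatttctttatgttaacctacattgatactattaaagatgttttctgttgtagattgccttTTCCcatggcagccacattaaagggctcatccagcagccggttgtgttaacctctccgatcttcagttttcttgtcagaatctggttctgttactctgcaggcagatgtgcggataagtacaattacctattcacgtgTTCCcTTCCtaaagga
The RefSeq promoter table used here held 8 promoters for 6 of the 10 members (these 4, Spry2 and Etv5); promoters of Fgfr1, Spry4, Dusp9 and Etv4 were not used here. The core letters occur 6 times in the Dusp6 window, 5 times in that of Etv1 and 4 times each in those of Il17rd and Fgfr2. They were in 7 of the 8 promoters, and in 96% of all 32851 promoters of the same length, so they do not set these genes apart. On either strand, the longer Ets letters CCGGAA were in 1 of the 8 (Spry2) and in 14.9% of all promoters, the Tcf/Lef letters CTTTGA in 1 (Etv1) and in 16%, the T letters TCACACCT in 0 and in 1.28%, and the Cdx letters TTTATNG in 0 and in 10.9%. A match is a description of the letters, and a window without one says only that these letters are not in it.

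On GRCm38.p6 the genes lie at chr8:25518759-25575718 (Fgfr1), chr7:130162451-130266808 (Fgfr2), chr14:105891947-105896819 (Spry2), chr18:38586247-38601347 (Spry4), chr10:99263231-99267489 (Dusp6), chrX:73639389-73643514 (Dusp9), chr14:27038964-27107286 (Il17rd), chr12:38780082-38870483 (Etv1), chr11:101769747-101785310 (Etv4) and chr16:22381313-22439570 (Etv5). Markers of the labelled material were looked at. In EpiSCs the summed level of 6 epiblast genes was 200 to 231 CPM (counts scaled to a common library size with TMM factors) in Null and 115 to 119 in WT cells at 24h, and 1020 to 1100 in Null and 543 to 574 in WT cells at 0h; Nanog, 1 of the 6, had 1 count in all. In tailbuds 8 streak and tailbud genes, T and the Cdx genes among them, summed to 337 to 459 CPM in Triple, 740 to 861 CPM in Cdx1-4 and 1070 to 1110 CPM in WT, and the epiblast genes Otx2 and Nanog were not detected. The 4 other epiblast genes summed to 166 to 177 CPM in Triple, 149 to 178 in Cdx1-4 and 153 to 193 in WT tailbuds. The tailbud sums thus lay within the range of those of EpiSCs at 24h. EpiSC and tailbud counts were scaled apart, and a sum does not compare the single genes. Cdx4 had 0 counts in Triple, 1 in Cdx1-4 and 68 in WT tailbuds, and Cdx1 averaged 75.8 ± 31.8 CPM in Triple, 61.7 ± 18.5 CPM in Cdx1-4 and 182 ± 32.6 CPM in WT (SD, n = 3 each); counts of 3′ ends do not check a deletion elsewhere in a gene. In EpiSCs Cdx4 had 2 counts in all, so the Null label could not be checked on it. Cdx1 and Cdx2 transcripts were present in Null libraries: at 24h Cdx2 averaged 11.6 ± 1.62 CPM in Null and 21.8 ± 11.9 CPM in WT cells, and Cdx1 4.57 ± 0.156 CPM in Null and 5.02 ± 0.781 CPM in WT cells (SD, n = 2 each). Cdx2 rose over the 24h by 2.31 ± 0.71 in log2 in Null and by 2.91 ± 0.519 in WT cells (edgeR adjusted p = 0.0237 and 0.000225), and the difference between Null and WT at 24h, -1.02 ± 0.4, did not pass (edgeR adjusted p = 0.126). T transcripts, 98.0 to 115 CPM in Triple and 164 to 210 CPM in WT tailbuds, were lower in Triple (log2 difference -0.85 ± 0.172, SE, edgeR adjusted p = 0.000898). EpiSC libraries held 1114055 to 2914870 counts and tailbud libraries 389601 to 854852, so 3 counts correspond to 1.03 to 2.69 CPM in EpiSCs and to 3.51 to 7.7 CPM in tailbuds.

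The first question was how the pathway's own target genes behaved when EpiSCs were moved to Chiron and Fgf8 for 24h. With Fgf8 and Chiron added, the Ets factor Etv1 and the ERK phosphatase Dusp6 fell in Null and in WT cells, and the phosphatase Dusp9 rose in both. The Dusp6 call in Null cells only just passed. Il17rd rose and Etv5 fell in Null cells, and their WT values went the same way without passing. In Null cells 5 of the 10 members were called by edgeR's quasi-likelihood test with Benjamini-Hochberg adjustment over all genes, 2 higher and 3 lower, against 18.6% of all 9703 tested genes (9.18% higher, 9.44% lower). In WT cells 3 of the 10 were called, 1 higher and 2 lower, against 16.8% of all tested genes (8.19% higher, 8.63% lower). The median log2 difference of the 10 genes was -0.031 in Null cells, against 0.01 over all tested genes, and -0.29 in WT cells, against -0.0083. The log2 difference was above 0 for 5 of the 10 genes in Null cells, against 4942 of all 9703 tested genes. In WT cells it was above 0 for 3 of the 10, against 4763 of the 9703. Calls went both ways in each line.

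Neither receptor was called over the 24h. Fgfr1 had 72.9 and 59.5 CPM at 24h and 55.6 and 50.6 CPM at 0h in Null cells, a log2 difference of 0.32 with a 95% interval from -0.0563 to 0.699. In WT cells it had 58.8 and 55.5 CPM at 24h and 74.9 and 59.8 CPM at 0h, a log2 difference of -0.23 with an interval from -0.577 to 0.112. In each line the 2 libraries at 24h lay to one side of the 2 at 0h, above them in Null and below them in WT cells, but neither difference passed (edgeR adjusted p = 0.252 in Null and 0.401 in WT cells). Fgfr2 was scarce, with 4.96 and 15.4 CPM in Null and 10.4 and 4.47 CPM in WT cells at 24h, and 7.58 and 8.13 CPM in Null and 11.2 and 17.6 CPM in WT cells at 0h. Replicates of Fgfr2 differed widely, and the log2 difference had a wide interval, from -0.735 to 1.31 in Null and from -1.65 to 0.02 in WT cells.

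Dusp6, a cytoplasmic ERK phosphatase and a common readout of Fgf activity, had 187 and 156 CPM at 24h and 234 and 207 CPM at 0h in Null cells. Both Null libraries at 24h lay below both at 0h, and the gene fell by 0.36 ± 0.13 in log2 (SE), which only just passed (edgeR adjusted p = 0.0482). That Null call was lost with DESeq2 (adjusted p = 0.156), without the filter on low counts (0.0672) and without Null 0h replicate 1 (0.372), Null 0h replicate 2 (0.0608) or Null 24h replicate 2 (0.37). In WT cells Dusp6 had 137 and 125 CPM at 24h and 246 and 220 CPM at 0h. The WT groups were separated as well, with a fall of 0.82 ± 0.127 to 0.565 times the 0h level (edgeR adjusted p = 8.77e-06). The difference between the Null and WT responses, 0.46 ± 0.182, was not called (edgeR adjusted p = 0.333).

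Dusp9, an X-linked ERK phosphatase, went the other way from Dusp6. It had 75.8 and 66.2 CPM at 24h and 39.2 and 35.2 CPM at 0h in Null cells, a rise of 0.93 ± 0.208 in log2, or 1.9-fold (edgeR adjusted p = 0.00117). In WT cells it had 25.4 and 36.4 CPM at 24h and 13.9 and 9.68 CPM at 0h, a rise of 1.33 ± 0.27, or 2.51-fold (edgeR adjusted p = 0.000449). The libraries at 24h lay above those at 0h in both lines. Il17rd, the membrane inhibitor, had 138 and 110 CPM at 24h and 85.3 and 72.3 CPM at 0h in Null cells, a rise of 0.65 ± 0.16 (edgeR adjusted p = 0.00294). In WT cells it had 142 and 131 CPM at 24h and 116 and 94.5 CPM at 0h, a log2 difference of 0.38 ± 0.144 that did not pass (edgeR adjusted p = 0.0657). In both lines the libraries at 24h lay above those at 0h. Leaving out Null 24h replicate 1 ended the Null call (adjusted p = 0.136), and the WT difference passed without the filter on low counts (0.0475) and without WT 24h replicate 2 (0.0482).

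The Sprouty genes were low in EpiSCs and gave no call. Spry2 ranged from 4.96 to 5.35 CPM in Null and 6.96 to 10.2 in WT cells at 24h, and from 6.33 to 12.6 in Null and 10.8 to 15.0 in WT cells at 0h. Its log2 differences were -0.94 in Null (interval -1.91 to 0.02) and -0.65 in WT cells (-1.41 to 0.11), and in both lines the 2 libraries at 24h lay below the 2 at 0h. Spry4 had 6.69 to 14.4 CPM in Null and 9.57 to 12.9 in WT cells at 24h, and 8.13 to 8.85 in Null and 10.8 to 14.5 in WT cells at 0h, with groups that overlapped in both lines.

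Among the Ets factors, Etv1 showed the clearest change. It had 28.7 and 40.8 CPM at 24h and 71.4 and 59.6 CPM at 0h in Null cells, a fall of 0.95 ± 0.202 in log2, to 0.516 times the 0h level (edgeR adjusted p = 0.000624; 0.0602 without Null 24h replicate 1). In WT cells Etv1 had 30.6 CPM in both libraries at 24h and 86.2 and 79.7 CPM at 0h, a fall of 1.44 ± 0.184, to 0.37 times (edgeR adjusted p = 2.99e-07). No library at 24h reached the lowest library at 0h in either line. Etv5 had 99.6 and 115 CPM at 24h and 194 and 145 CPM at 0h in Null cells and fell by 0.68 ± 0.146 (edgeR adjusted p = 0.000728; 0.132 without Null 0h replicate 1). In WT cells it had 130 and 136 CPM at 24h and 175 and 163 CPM at 0h, a difference of -0.35 ± 0.136 that did not pass (edgeR adjusted p = 0.0722). Etv4 had 15.9 and 18.7 CPM in Null and 18.1 and 14.7 CPM in WT cells at 24h, and 23.4 and 19.9 CPM in Null and 16.6 and 12.5 CPM in WT cells at 0h, with log2 differences of -0.35 and 0.20. Neither Etv4 difference was called (edgeR adjusted p = 0.459 and 0.72).

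**Figure D1:**
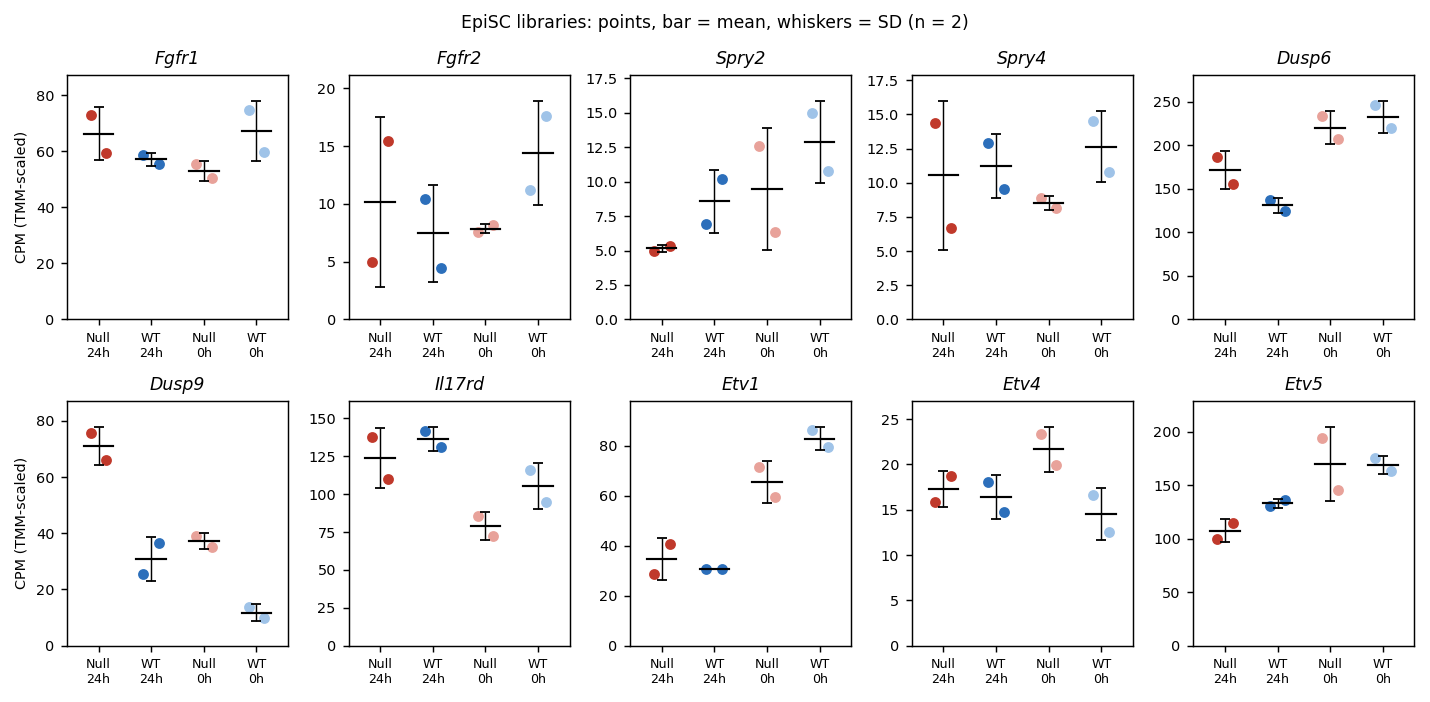
Level of each of the 10 genes in the 8 EpiSC libraries, in CPM on a linear axis that starts at 0. Points are libraries, bars the mean and whiskers the SD of 2 libraries; columns run Null 24h, WT 24h, Null 0h and WT 0h. Dusp6 and Etv1 lie lower at 24h in both lines, and Dusp9 lies higher in Null than in WT at each time.

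**Figure D2:**
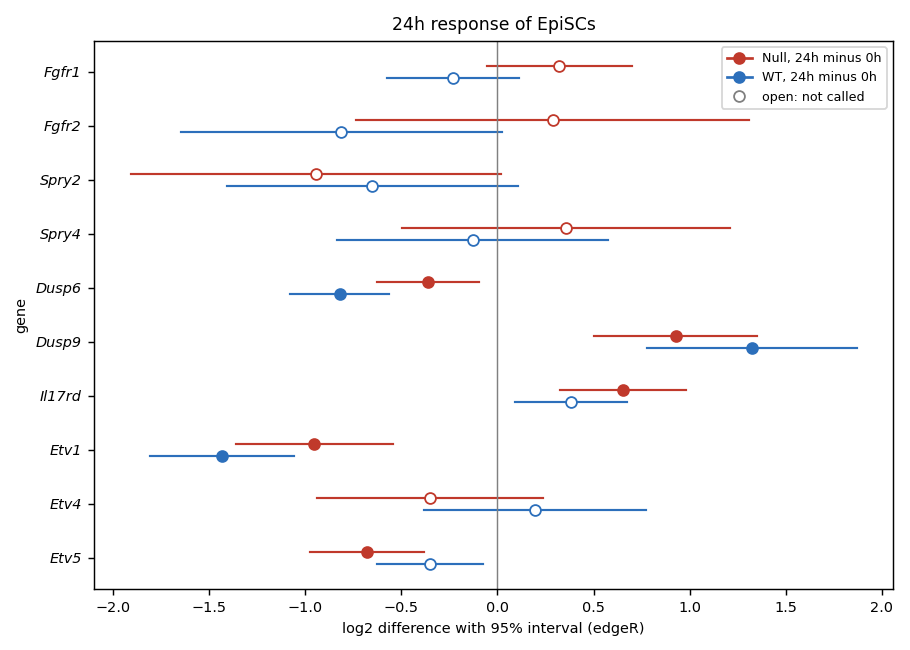
The log2 difference of 24h minus 0h for each gene, with its 95% interval, in Null (red) and WT (blue) EpiSCs. Filled points were called at an adjusted p below 0.05; Etv1 and Dusp6 lie left of 0 and Dusp9 right of 0 in both lines.

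Markers of cell state changed over the same 24h. The 8 streak and tailbud markers summed to 714 to 839 CPM in Null and 589 to 785 in WT cells at 24h, and to 29.8 to 39.2 in Null and 81.9 to 92.8 in WT cells at 0h. All 4 tested epiblast markers fell in both lines. The 7 fibroblast markers summed to 86.2 to 108 CPM in Null and 115 to 149 in WT cells at 24h, and to 102 to 119 in Null and 209 to 255 in WT cells at 0h. Of the 4 tested, 1 was called higher and 1 lower at 24h in Null cells, and 1 lower in WT cells. The 5 presomitic markers summed to 273 to 367 CPM in Null and 205 to 293 CPM in WT cells at 24h, and to 25.3 to 32.2 CPM in Null and 38.1 to 57.3 CPM in WT cells at 0h, and 3 of the 4 tested rose in each line. The 4 neural markers summed to 101 to 114 CPM in Null and 168 to 177 CPM in WT cells at 24h, and to 427 to 581 CPM in Null and 470 to 496 CPM in WT cells at 0h, with Sox1 and Sox2 lower at 24h in both lines. The 5 neural crest markers summed to 443 to 477 CPM in Null and 660 to 691 CPM in WT cells at 24h, and to 79 to 98.5 CPM in Null and 109 CPM in WT cells at 0h. Of their 3 tested genes Crabp1 rose and Foxd3 fell in both lines. The 6 endoderm markers summed to 111 to 156 CPM in Null and 49.1 to 50.8 CPM in WT cells at 24h, and to 155 to 213 CPM in Null and 99.6 to 117 CPM in WT cells at 0h, with 2 called in Null and 3 in WT cells, all lower at 24h. The part of these shifts in the changes of Etv1, Dusp6 and the other members was not tested. In bulk RNA, fewer cells of a type and less RNA per cell cannot be told apart.

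Null cells were then set against WT cells at the same time. Of the 10 members only Dusp9 was called by edgeR, at 0h as at 24h, against 6.67% of all tested genes at 0h and 8.05% at 24h. Dusp9 averaged 37.2 ± 2.78 CPM in Null and 11.8 ± 3.00 CPM in WT cells at 0h (SD, n = 2 each), a log2 difference of 1.65 ± 0.278, or 3.15-fold (edgeR adjusted p = 0.000139). At 24h it averaged 71.0 ± 6.81 CPM in Null and 30.9 ± 7.74 CPM in WT cells, a difference of 1.26 ± 0.199, or 2.39-fold (edgeR adjusted p = 4.9e-05). Ordered by level, Null cells at 24h stood highest and WT cells at 0h lowest, while Null cells at 0h (39.2 and 35.2 CPM) and WT cells at 24h (25.4 and 36.4 CPM) overlapped. Dusp9 was called in these 2 comparisons under every alternative that was run, with the highest adjusted p at 0.0105 and 0.013.

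Dusp9 lies on the X chromosome, and sex-linked transcripts were therefore looked at. All 8 libraries held the Y-linked transcript Ddx3y, with 124 and 171 CPM in Null and 70.7 and 76.5 CPM in WT cells at 24h. At 0h it had 155 CPM in each Null library and 94.2 and 90.0 CPM in WT cells. Ddx3y was higher in Null cells by 1.00 ± 0.15 in log2 at 24h and by 0.75 ± 0.151 at 0h (edgeR adjusted p = 2.15e-05 and 0.00141). The Y-linked Eif2s3y differed more, with 33.2 and 48.1 CPM in Null and 5.57 and 5.1 CPM in WT cells at 24h, and 31.6 and 26.2 CPM in Null and 3.21 and 5.12 CPM in WT cells at 0h. Its log2 differences were 2.88 ± 0.305 at 24h and 2.80 ± 0.369 at 0h (edgeR adjusted p = 3.58e-08 and 2.36e-06). The Y-linked Kdm5d, 10.7 ± 0.968 CPM in Null and 17.7 ± 3.85 CPM in WT cells at 24h, and Uty, 4.83 ± 2.63 CPM in Null and 3.31 ± 0.737 CPM in WT cells, were not called at either time, so Y-linked genes differed unequally between the lines. The X-linked Xist, the RNA that silences an X chromosome in female cells, had 1 count in 1 Null library at 24h and 0 in the 7 other libraries. The 332 tested X-linked genes had a median log2 difference between Null and WT of -0.019 at 0h and 0.016 at 24h, against -0.013 and 0.0026 for autosomal genes. The medians of X-linked and autosomal genes thus lay close together. The epiblast and endoderm markers summed higher in Null than in WT cells at each time and the fibroblast markers lower, with the values given above. Of the 6 endoderm markers, all tested, 4 were higher in Null cells at 24h, and 3 were higher and 2 lower at 0h. Of the 4 tested fibroblast markers only Col3a1 was called, lower in Null cells at each time. At 24h 3 of these 4 had a log2 difference above 0, uncalled, with a median of 0.3, so the lower sum does not hold for each gene. The part of the Y-linked and marker differences in that of Dusp9 was not tested.

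The other 9 members were not called between Null and WT cells at either time. Dusp6 came closest at 24h, with 187 and 156 CPM in Null and 137 and 125 CPM in WT cells, a log2 difference of 0.39 ± 0.131 (edgeR adjusted p = 0.0638). The 24h libraries of the 2 lines did not overlap for Dusp6, whereas at 0h they did, with 234 and 207 CPM in Null and 246 and 220 CPM in WT cells. Il17rd had 85.3 and 72.3 CPM in Null and 116 and 94.5 CPM in WT cells at 0h, a difference of -0.41 ± 0.163 (edgeR adjusted p = 0.138), and at 24h its ranges overlapped. No member was called in the test of the difference between the Null and WT responses, where 0.567% of all genes were called. Dusp6 and Fgfr1 had an unadjusted edgeR p under 0.05 in that test. The share of all genes at that cut was not taken, so they have no background there. DESeq2 called 0 members. These intervals still allow differences: that of Etv1 runs from -0.08 to 1.04 and that of Fgfr2 from -0.22 to 2.42 in log2.

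A wider list of 70 pathway genes that are no members showed which other parts of the pathway moved, and 53 of them were tested. This list too was chosen with earlier results of these data known. Its shares beside those of all genes are descriptions and no test of the pathway. At 24h against 0h, 10 rose and 11 fell in Null cells (39.6% of those tested, against 18.6% of all tested genes) and 12 rose and 10 fell in WT cells (41.5%, against 16.8%). Of 8 tested ligands 4 rose and 3 fell in Null and 3 rose and 2 fell in WT cells. Of 8 tested receptors and co-receptors 2 rose and 3 fell in Null and 3 rose and 3 fell in WT cells. Among 9 tested feedback genes 2 rose and 2 fell in Null and 2 rose and 3 fell in WT cells. Among 12 tested Ets factors and targets 2 rose and 1 fell in Null and 3 rose and 1 fell in WT cells. Among 7 tested adaptors 1 fell in Null, and 1 rose and 1 fell in WT cells. Among 9 tested genes of the Ras to ERK cascade 1 fell in Null and 0 were called in WT cells. Fgf10, a mesodermal ligand, averaged 66.0 ± 22.4 CPM at 24h and 1.54 ± 0.384 CPM at 0h in Null cells, a rise of 5.43 ± 0.435 (edgeR adjusted p = 7.97e-12). In WT cells it had 119 counts at 24h and 1 at 0h, a ratio of 92.1 (exact 95% interval 16.2 to 3670, counting error only). The glypican Gpc3, an X-linked heparan sulfate proteoglycan, averaged 262 ± 30.7 CPM at 24h and 49.3 ± 13.4 CPM at 0h in Null cells, and 150 ± 24.8 CPM at 24h and 58.2 ± 10.3 CPM at 0h in WT cells. It rose in both lines, by 2.45 ± 0.175 in Null and by 1.38 ± 0.165 in WT cells. The epiblast ligand Fgf5 fell by 2.34 ± 0.252 in Null and by 1.94 ± 0.254 in WT cells. The syndecan Sdc3, which also carries heparan sulfate, fell by 1.26 ± 0.257 in Null and by 1.46 ± 0.2 in WT cells. The transcript of Fgf8, the ligand that had been added as protein, rose by 2.25 ± 0.269 in Null and by 1.39 ± 0.223 in WT cells.

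Between the lines at 0h, 2 of the 53 listed genes were higher and 5 lower in Null cells (13.2%, against 6.67% of all tested genes), and at 24h 3 were higher and 3 lower (11.3%, against 8.05%). Fgf4, a ligand of the epiblast and early streak, averaged 19 ± 6.34 CPM in Null and 1.98 ± 2.04 CPM in WT cells at 0h, from 49 and 7 counts, a difference of 3.21 ± 0.564 (edgeR adjusted p = 0.000268). The Ets family member Elk3 (-1.01 ± 0.208), Sdc3 (-0.81 ± 0.203) and Flrt3 (-0.92 ± 0.244), a membrane protein that binds Fgf receptors, were lower in Null cells at 0h. Sdc3 and Flrt3 were not called with DESeq2 (adjusted p = 0.136 and 0.0872). Sdc3 was also not called without Null 0h replicate 1 (0.0616), Null 0h replicate 2 (0.106) or WT 0h replicate 2 (0.132), and Flrt3 without Null 0h replicate 1 (0.48), WT 0h replicate 1 (0.118) or WT 0h replicate 2 (0.0502). At 24h Fgf10 (1.34 ± 0.223) and Gpc3 (0.79 ± 0.141) were higher in Null cells, and Phlda1 (-0.83 ± 0.197) and Gpc4 (-0.75 ± 0.204) lower. Phlda1 and Gpc4 were not called with DESeq2 (adjusted p = 0.106 and 0.146). Phlda1 lost its call without Null 24h replicate 1 (0.098) or WT 24h replicate 1 (0.109), Gpc4 without Null 24h replicate 2 (0.205) or WT 24h replicate 1 (0.145), and Fgf10 without Null 24h replicate 1 (0.0592).

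In tailbuds the question was what became of the same genes in Triple and Cdx1-4 embryos. Triple tailbuds had more Fgfr2 and Dusp9 and less Il17rd and Etv4 transcript than WT tailbuds. Of the 7 members that passed the filter on low counts, 4 were called, 2 higher and 2 lower, against 2.9% of all 6003 tested genes (1.62% higher, 1.28% lower). Spry2, Spry4 and Etv1 were too low to test. Between Triple and Cdx1-4 tailbuds Fgfr2 was higher and Il17rd lower, 2 calls among the 7, against 2.02% of all tested genes (1.22% higher, 0.8% lower). Between Cdx1-4 and WT tailbuds 0 of the 7 were called, against 0.133% of all tested genes, and with DESeq2 0 as well. Etv4 had an unadjusted edgeR p under 0.05, a cut at which the share of all genes was not taken.

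Fgfr2 had the largest log2 difference of the 7 tested members. It had 54.4, 92.8 and 85.0 CPM in Triple, 29.8, 24.9 and 27 CPM in Cdx1-4 and 13.4, 15.8 and 25.3 CPM in WT tailbuds. Every Triple library lay above every library of the other groups, and Cdx1-4 and WT overlapped. The size of the difference was 2.19 ± 0.304 in log2 between Triple and WT, or 4.55-fold (edgeR adjusted p = 1.51e-06), and 1.52 ± 0.263 between Triple and Cdx1-4, or 2.86-fold (edgeR adjusted p = 0.000164). Both calls held under all 13 alternatives that were run, with adjusted p up to 0.000977 and 0.0056. Between Cdx1-4 and WT the value was 0.67, with an interval from -0.04 to 1.37 (edgeR adjusted p = 0.686). Fgfr1, the other receptor, had 89.8, 92.8 and 67.6 CPM in Triple, 81.3, 52.5 and 74.9 CPM in Cdx1-4 and 53.7, 68.6 and 60.6 CPM in WT tailbuds. The Triple and WT ranges of Fgfr1 overlapped, and the difference of 0.46 ± 0.227 did not pass (edgeR adjusted p = 0.409).

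Il17rd had 19.1, 19.5 and 39.9 CPM in Triple, 67.8, 69.1 and 74.9 CPM in Cdx1-4 and 57.4, 79.1 and 73.3 CPM in WT tailbuds. All Triple libraries lay below all others, while Cdx1-4 lay within the WT range. It fell by 1.27 ± 0.28 in Triple against WT, to 0.414 times (edgeR adjusted p = 0.00305), and by 1.33 ± 0.269 against Cdx1-4, to 0.399 times (edgeR adjusted p = 0.00154). With only the blue libraries (a colour named in the column headers, 2 libraries a group) the sizes were -1.28 and -1.19, with adjusted p of 0.0502 and 0.0791. Between Cdx1-4 and WT the interval of the difference ran from -0.38 to 0.50.

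Of the phosphatases among the members only Dusp9 was called here, between Triple and WT. Dusp9 and Dusp6 were not tested against each other. Dusp9 had 155, 222 and 151 CPM in Triple, 113, 108 and 125 CPM in Cdx1-4 and 111, 87.0 and 116 CPM in WT tailbuds. The Triple libraries lay above the rest, with a difference from WT of 0.72 ± 0.184, or 1.65-fold (edgeR adjusted p = 0.0143), and from Cdx1-4 of 0.61 ± 0.176 (edgeR adjusted p = 0.0506). The call against WT was lost with DESeq2 (adjusted p = 0.066), with blue libraries alone (0.0876), and without Triple blue-1 (0.236), WT green-1 (0.0538) or WT blue-1 (0.0928). The 217 tested X-linked genes had a median log2 difference of 0.059 between Triple and WT, against -0.0053 for autosomal genes. Xist and the Y-linked Ddx3y, Eif2s3y, Kdm5d and Uty were not among the genes called between Triple and WT. A gene removed by the filter on low counts cannot be called, so this does not show the sex of the embryos. The part of embryo sex in the Dusp9 difference was not tested. Dusp6 had 32.7, 44 and 34.7 CPM in Triple, 33.9, 37.3 and 56.2 CPM in Cdx1-4 and 44, 5.27 and 30.3 CPM in WT tailbuds. The low WT library, blue-1, held 2 counts of Dusp6. The difference between Triple and WT was 0.28 ± 0.365 (edgeR adjusted p = 0.863), and -0.08 without that library.

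Etv4 formed a series over the 3 groups. It had 10.9, 17.1 and 20.8 CPM in Triple, 28.5, 31.8 and 33.3 CPM in Cdx1-4 and 36.6, 63.3 and 53.1 CPM in WT tailbuds. None of the 3 ranges overlapped. Against WT, Etv4 fell by 1.49 ± 0.338 in Triple, to 0.355 times (edgeR adjusted p = 0.0039), and this call held under all 13 alternatives that were run (adjusted p up to 0.0392). The steps on either side of Cdx1-4 did not pass, with -0.86 ± 0.355 for Triple against Cdx1-4 (edgeR adjusted p = 0.297) and -0.63 ± 0.276 for Cdx1-4 against WT (edgeR adjusted p = 0.584). Etv5 had 109, 95.2 and 104 CPM in Triple, 129, 122 and 148 CPM in Cdx1-4 and 140, 177 and 116 CPM in WT tailbuds. All 3 Triple libraries lay below the rest, but the difference from WT, -0.48 ± 0.187, did not pass (edgeR adjusted p = 0.208).

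The members too low to test were described from their counts. Etv1 had 9 counts in Triple, 22 in Cdx1-4 and 22 in WT tailbuds, which gives a Triple to WT ratio of 0.484 (exact 95% interval 0.196 to 1.09). In CPM these were 5.44 to 7.33, 8.32 to 14.9 and 12.6 to 14.7, so the Triple libraries were the 3 lowest. Spry4 had 1 count in Triple, 11 in Cdx1-4 and 6 in WT, a Triple to WT ratio of 0.197 (0.00428 to 1.62) and a Triple to Cdx1-4 ratio of 0.13 (0.00302 to 0.895). Spry2 had 4, 8 and 3 counts in the same order, and its Triple to WT ratio of 1.58 has an interval of 0.267 to 10.8. The intervals cover counting error only and not the spread between libraries.

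**Figure D3:**
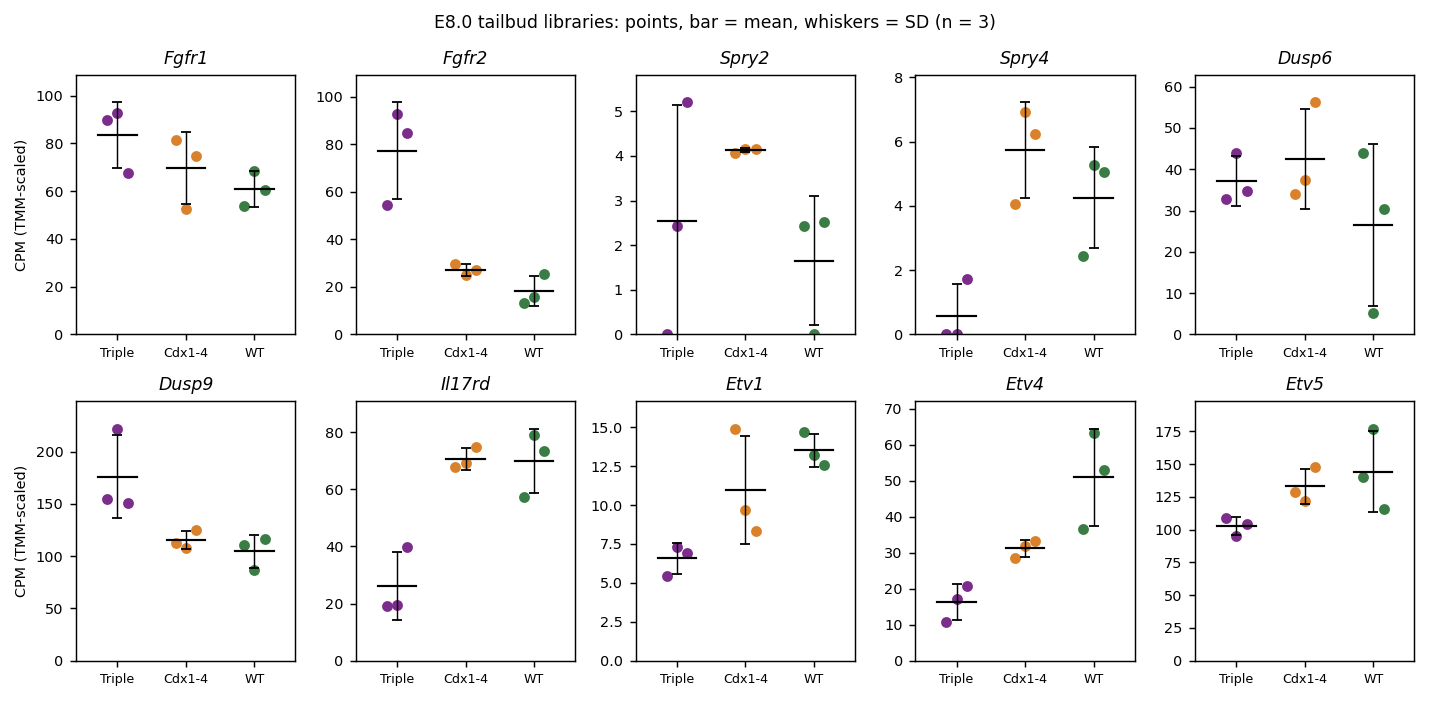
Level of each of the 10 genes in the 9 tailbud libraries, in CPM on a linear axis that starts at 0, in Triple, Cdx1-4 and WT order. Points are libraries, bars the mean and whiskers the SD of 3 libraries, not drawn below 0. Fgfr2 lies higher and Il17rd lower in all 3 Triple libraries than in the 6 others, and the 3 groups of Etv4 do not overlap.

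**Figure D4:**
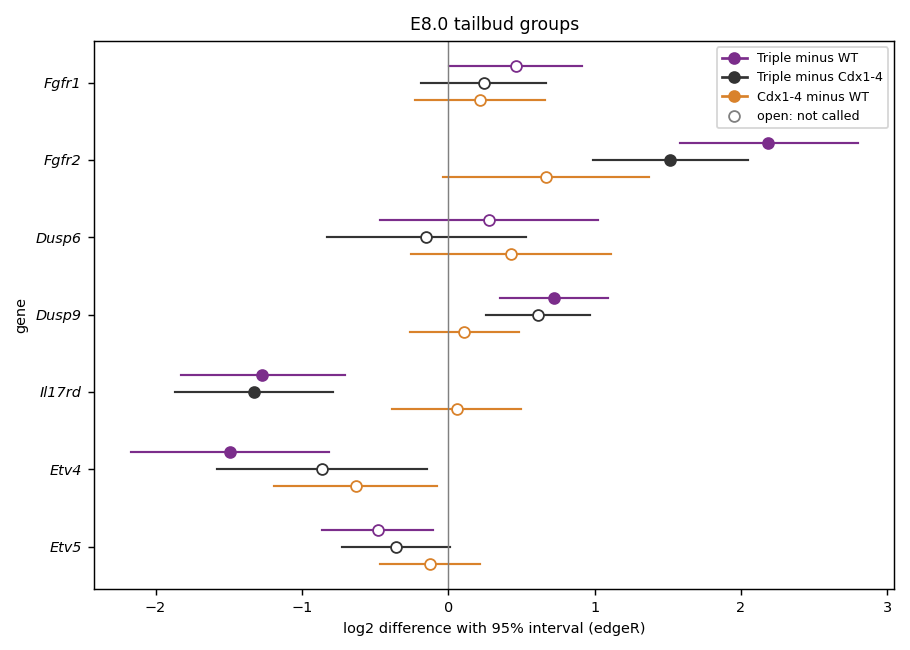
The log2 difference, with its 95% interval, for the 7 tested genes between Triple and WT (purple), Triple and Cdx1-4 (black) and Cdx1-4 and WT (orange). Filled points were called at an adjusted p below 0.05; 0 of the 7 orange points are filled.

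Some markers of other cell types and most of those of tailbud progenitors differed between the groups as well. Of 8 tested streak and tailbud markers 7 were lower in Triple than in WT, namely Cdx1, Cdx2, Cdx4, Evx1, Fgf8, Hoxb9 and T. The alleles behind the group names are not given. For the Cdx genes and T, an altered allele and a change of cells cannot be told apart. The 5 presomitic markers summed to 97.7 to 127 CPM in Triple, 294 to 337 CPM in Cdx1-4 and 316 to 348 CPM in WT, and all 3 tested ones were lower in Triple than in WT. The 5 detected markers of formed somites summed to 281 to 352 CPM in Triple, 94.9 to 133 CPM in Cdx1-4 and 61.1 to 84.4 CPM in WT, with Pax1 not detected. Meox1 and Tcf15 were called between Triple and WT, and Pax3, Uncx and Foxc2 were not among the called genes. The 6 endoderm markers summed to 2080 to 2190 CPM in Triple, 1330 to 1640 CPM in Cdx1-4 and 1450 to 1690 CPM in WT, with the epithelial keratins Krt8 and Krt18 higher in Triple. Sox17, Foxa2, Epcam and Cldn6 were not among the genes called between Triple and WT. The 4 detected neural crest markers summed to 1040 to 1330 CPM in Triple, 1060 to 1140 CPM in Cdx1-4 and 1150 to 1400 CPM in WT, with Foxd3 not detected. Of the 2 tested, Sox10 was higher in Triple than in WT, and Crabp1, most of that sum, differed by -0.21 ± 0.111 and was not called (edgeR adjusted p = 0.45). Sox10 averaged 108 ± 7 CPM in Triple, 6.88 ± 1.40 CPM in Cdx1-4 and 2.47 ± 2.44 CPM in WT. The 5 detected markers of decidua and trophoblast summed to 50.3 to 81.7 CPM in Triple, 40.1 to 49.9 CPM in Cdx1-4 and 44.8 to 58.1 CPM in WT, with Elf5 not detected. Only Prl8a2 was called between Triple and WT, higher in Triple. Neural markers summed to 112 to 144 CPM in Triple, 162 to 191 CPM in Cdx1-4 and 89.7 to 144 CPM in WT. Fibroblast markers, of which Thy1 was among the genes called between Triple and WT, summed to 27.2 to 67.6, 66.6 to 106 and 53.1 to 94.9 CPM. Blood and endothelium markers summed to 19.1 to 69.4, 9.49 to 286 and 21.1 to 40.4 CPM. The Triple and WT sums overlapped for each of these 3 lists. The part of these differences in the levels of Fgfr2, Il17rd, Dusp9 and Etv4 was not tested.

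Of the wider list, 32 genes were tested in tailbuds, and 1 was higher and 2 were lower in Triple than in WT (9.38%, against 2.9% of all tested genes). Flrt3 had 280, 300 and 307 CPM in Triple, 75.9, 117 and 175 CPM in Cdx1-4 and 98.9, 124 and 83.4 CPM in WT tailbuds. It was higher in Triple than in WT by 1.55 ± 0.198 (edgeR adjusted p = 2.04e-06) and than in Cdx1-4 by 1.32 ± 0.187 (edgeR adjusted p = 2.43e-05). The ligand Fgf8, also among the streak and tailbud markers, had 40.8, 34.2 and 27.7 CPM in Triple and 78.2, 84.4 and 63.2 CPM in WT tailbuds, a difference of -1.18 ± 0.26 (edgeR adjusted p = 0.00305; 0.062 with blue libraries only and 0.053 without Triple blue-2). The ERK phosphatase Dusp4 had 16.3, 19.5 and 12.1 CPM in Triple and 44, 39.6 and 55.6 CPM in WT tailbuds, a difference of -1.55 ± 0.347 (edgeR adjusted p = 0.00333; 0.0616 with blue libraries only and 0.0604 without Triple blue-2).

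The genes with the most similar profiles were looked up for the members with calls, by the root mean square difference of log2(CPM + 1) after centring each gene on its mean over the libraries. Over the 9 tailbud libraries Il17rd lay nearest to Dll3 (0.22), Evx1 (0.29) and Hes7 (0.31). Dll3 and Hes7 are Notch pathway genes of the segmentation clock, and Evx1 is a homeobox gene of the streak; these 3 were also among the presomitic or streak markers above. Dll3 averaged 40.4 ± 10.2 CPM in Triple, 91.7 ± 7.08 CPM in Cdx1-4 and 97.6 ± 10.3 CPM in WT tailbuds. Fgfr2 lay nearest to Soga3 (0.34), Cdc42ep1 (0.35) and Meox1 (0.40), of which Meox1 is a homeobox gene and 1 of the formed somite markers above. Meox1 averaged 222 ± 28.4 CPM in Triple, 67.4 ± 10.7 CPM in Cdx1-4 and 38.6 ± 7.77 CPM in WT tailbuds. Etv4 lay nearest to P4ha2 (0.21), Atp13a3 (0.26) and Evx1 (0.29), and Dusp9 to Slc2a1 (0.10), a glucose transporter, Fzd2 (0.16), a Wnt receptor, and Tspan9 (0.16). Over the 8 EpiSC libraries the nearest profile was Jam3 for Dusp6 (0.11), Etl4 for Etv1 (0.19), Bri3bp for Il17rd (0.093), Racgap1 for Etv5 (0.083) and Zfp330 for Dusp9 (0.39). These likenesses are descriptions over libraries that share their groups, without a test.

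**Figure D5:**
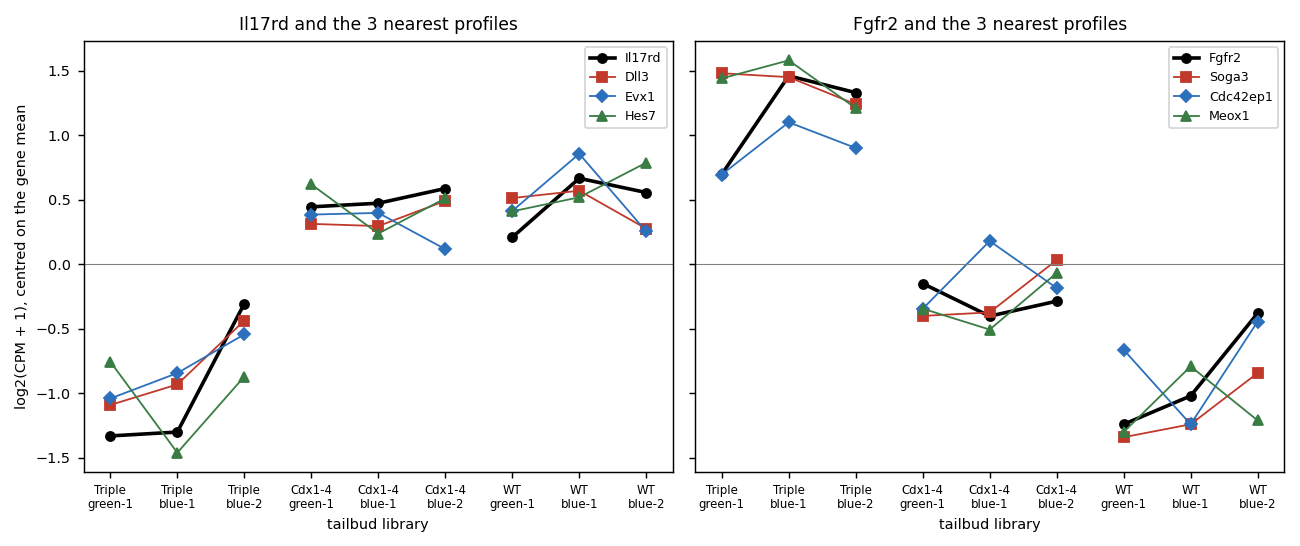
Centred log2(CPM + 1) of Il17rd (left) and Fgfr2 (right) and of their 3 nearest genes in the 9 tailbud libraries, ordered Triple, Cdx1-4, WT; lines join libraries of a group for legibility. Il17rd, Dll3, Evx1 and Hes7 lie below 0 in the 3 Triple libraries, and Fgfr2, Soga3, Cdc42ep1 and Meox1 lie above it.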

How the data were processed

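Per the labels, CEL-seq libraries were made from 10 ng of RNA and sequenced as 75 bp paired ends. The deposited tables hold raw counts per gene and library, not normalised; the build is mm10 per the submitters' processing notes, and the aligner and counter are not given in the sources used here. The 8 spike-in entries of each table, with 2 reads in EpiSCs and 1 in tailbuds, were left out. Each table was fitted alone with edgeR 4.0.16 in R 4.3.3 (quasi-likelihood test, robust, TMM scaling, 1 mean per group) after filterByExpr, which left 9703 and 6003 genes. Genes with a Benjamini-Hochberg adjusted p below 0.05 over all tested genes were called. The EpiSC fit had 4 residual degrees of freedom and a common biological coefficient of variation of 0.081; the tailbud fit had 6 and 0.0995. SEs of log2 differences come from the F statistic. The script was tested on simulated data.

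Tailbud columns were placed in groups by name; 1 column, spelled with Cd4 in place of Cdx, was placed in Cdx1-4, and column colours (blue, green) match no sample title. The members and lists were chosen with earlier results of these data known. Named pathway genes are up to 4 called genes per comparison with the smallest p; nearest profiles are the 3 non-member genes, predicted genes left out, with a mean of at least 20 CPM. Replicate libraries differed by more than counting noise (chi-square over degrees of freedom 1.69 to 2.93). DESeq2 1.42.0, RLE scaling, no filter, the compared groups alone, leaving out each library, a replicate block and, in tailbuds, colour were alternatives. Chromatin region lists in mm9 were not used here.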

Additional observations from a re-analysis of the deposited data

Results flagged for a closer look

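The glypicans Gpc3 and Gpc4, heparan sulfate proteoglycans that act as Fgf co-receptors, responded differently in Null and WT EpiSCs in the test of the difference between the 24h responses. Gpc3 had 283 and 240 CPM at 24h and 39.8 and 58.7 CPM at 0h in Null cells, and 167 and 132 CPM at 24h and 50.8 and 65.5 CPM at 0h in WT cells; its rise was larger in Null cells by 1.066 ± 0.248 in log2 (SE, edgeR adjusted p = 0.0315). Gpc4 had 35.7 and 28.1 CPM at 24h and 42.3 and 53.3 CPM at 0h in Null cells, and 56.0 and 51.7 CPM at 24h and 39.1 and 27.3 CPM at 0h in WT cells; the difference was -1.247 ± 0.301 (edgeR adjusted p = 0.0436). Gpc3 was not called with DESeq2 (adjusted p = 0.0764), nor without Null 0h replicate 1 (0.35), Null 24h replicate 1 (0.195), WT 0h replicate 2 (0.272) or WT 24h replicate 2 (0.0614). Gpc4 was not called without Null 0h replicate 1 (0.0609) or 2 (0.169), Null 24h replicate 1 (0.0736) or 2 (0.185), WT 24h replicate 1 (0.128) or WT 0h replicate 2 (0.264). Gpc3 was called under 7 of 12 alternatives (adjusted p 0.00102 to 0.35) and Gpc4 under 5 of 11 (0.00971 to 0.264). For Gpc4 DESeq2 gave no adjusted p.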

How the results depend on the processing

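Called genes named here (members and pathway genes) kept direction and call in 341 gene-by-alternative values, lost the call in 45 and reversed in 0; uncalled ones reversed in 24 values and became called in 6. Depth limits Spry2, Spry4 and Etv1 in tailbuds and Fgfr2 and the Sprouty genes in EpiSCs, and with 2 libraries per EpiSC group single libraries decide several calls.

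DESeq2 called 1030 genes for the Null and 844 for the WT 24h response, 258 and 289 between Null and WT at 0h and 24h, 23 for the difference of responses, 105 for Triple against WT and 69 for Triple against Cdx1-4, against 1807, 1632, 647, 781, 55, 174 and 121 with edgeR. It gave no adjusted p for some low genes, such as Fgf4 at 0h. Without the filter on low counts 93 genes differed in response. Blue libraries alone gave 74 genes and 2 members (Fgfr2, Etv4) for Triple against WT, 38 genes and 1 member (Fgfr2) for Triple against Cdx1-4, and uncalled values of -0.0554 for Fgfr1 and -0.0866 for Il17rd between Cdx1-4 and WT that turned sign. The cause was not tested.

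Deviations of same-numbered EpiSC libraries correlated weakly (r = 0.0073 to 0.087 over 6 pairs of groups). Counting noise lowers r, so whether equal numbers mark a shared batch cannot be told from these values. A replicate block gave 123 genes for the difference of responses, 5 members for the WT response (adding Etv5, adjusted p = 0.0344, and Il17rd, 0.0287) and 2 at 24h (adding Dusp6, 0.0169), by edgeR. In tailbuds, whose sets (green-1, blue-1, blue-2) are named in the columns alone, deviations of same-named libraries had r of -0.091 to 0.051 over 9 pairs. A replicate block on the set, chosen after seeing the data, gave 163 genes and 4 members for Triple against WT, 118 and 2 for Triple against Cdx1-4 and 6 and 0 for Cdx1-4 against WT, with no member's call changed.

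Leaving out 1 library at a time gave 1121 to 1424 genes for the Null and 1034 to 1584 for the WT response, 326 to 361 and 357 to 796 between Null and WT at 0h and 24h, 18 to 82 for the difference of responses, 125 to 154 for Triple against WT, 70 to 110 for Triple against Cdx1-4 and 6 to 11 for Cdx1-4 against WT. The members called numbered 3 to 4, 3 to 4, 1, 1, 0, 3 to 4, 2 to 3 and 0 in that order. Of the uncalled members, these ranges of the log2 difference crossed 0: in the Null response Fgfr2, -0.649 to 0.964, and Spry4, -0.356 to 0.747; in the WT response Spry4, -0.388 to 0.0976; between Null and WT at 0h Dusp6, -0.162 to 0.0114, and Etv5, -0.218 to 0.198; at 24h Etv1, -0.0948 to 0.405, Etv4, -0.084 to 0.217, Fgfr2, -0.708 to 1.08, Il17rd, -0.324 to 0.00513, and Spry4, -0.792 to 0.307. For the difference of responses they were Spry2, -0.638 to 0.344, and Spry4, -0.239 to 0.864. In tailbuds they were Dusp6 for Triple against WT, -0.0811 to 1.02, and against Cdx1-4, -0.291 to 0.055, and for Cdx1-4 against WT Etv5, -0.239 to 0.00786, and Il17rd, -0.118 to 0.148.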
